A study of Homo sapiens with 12 samples.

Results

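The insulin-like growth factor (IGF) axis was followed through 7 genes in HepaRG cells with and without the constitutive androstane receptor (CAR). The genes were the ligand IGF1, the receptors IGF1R and IGF2R, and the binding proteins IGFBP1, IGFBP2, IGFBP3 and IGFBP4. They were taken by symbol from a deposited table of 15822 loci, where each matched 1 locus, and all 7 reached the minimum level for testing. They had been chosen by earlier results of the same libraries, among them the PB and CITCO values of IGFBP1 and IGFBP3 in wild-type cells. The difference of their PB responses between the genotypes was also known. HepaRG is a human hepatoma line whose cultures differentiate into hepatocyte-like and biliary-like cells. RNA was sequenced from 12 libraries in 6 groups of 2 libraries. Cells labelled as a human CAR knockout (KO) and wild-type cells (WT) were each exposed to phenobarbital (PB), to CITCO or to the solvent DMSO. PB is a barbiturate that activates CAR without binding it, and CITCO is a synthetic ligand of the human receptor. Sources used here give neither doses, exposure times and the position of the edit nor the number of KO clones or whether counting used strand. Nothing in the labels ties duplicates to separate cultures, and p-values therefore reflect the spread among libraries alone, possibly a technical one.

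IGF1 is a secreted growth factor that in the body comes largely from hepatocytes, where growth hormone drives its transcription through STAT5. It signals through the tyrosine kinase IGF1R, while IGF2R removes IGF2 from the cell surface and sorts lysosomal enzymes. The binding proteins hold IGFs in plasma and tissue and limit their access to the receptor, and IGFBP1 is the member whose hepatic transcription insulin represses.

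Libraries held 49258123 to 66453415 reads. Levels are given in CPM, counts per 1000000 reads of a library size that already carries the authors' normalization factor. They are compared between libraries but not between genes, since gene lengths were not used. NR1I3, the gene of CAR, was at 9.63 to 16.2 CPM in KO libraries and 9.33 to 15.5 CPM in WT libraries, so its transcript level does not check the genotype labels. Of 8 hepatocyte markers 7 were measured, and their summed level was 54392 to 57665 CPM in KO and 137720 to 155210 CPM in WT libraries. Albumin made up most of that sum, with 40497 to 44229 CPM in KO and 113477 to 130121 CPM in WT libraries. The remaining hepatocyte marker, TF, was not analysed here. The genotypes overlapped for TTR (405 to 446 CPM in KO and 419 to 473 CPM in WT libraries) and for TAT (36.6 to 44.1 CPM and 41.5 to 49.1 CPM).

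The upstream DNA of 3 genes with large genotype differences is shown because 1 of them was close to silent in WT cells and the others differed in level. RefSeq promoter windows (GRCh38.p14) were found for 6 of the 7 genes, and IGFBP1 had no entry. Of the 250 bases before the annotated start only those outside the gene's span are printed, which left out 92 bases for IGF1. The sequences run 5′ to 3′ along the gene's strand, with capitals marking a match to a searched motif. IGF1 lies on the minus strand and its sequence is chr12:102481840-102481997. That of IGFBP3, also on the minus strand, is chr7:45921273-45921522, and that of IGFBP4, on the plus strand, is chr17:40443200-40443449.
IGF1: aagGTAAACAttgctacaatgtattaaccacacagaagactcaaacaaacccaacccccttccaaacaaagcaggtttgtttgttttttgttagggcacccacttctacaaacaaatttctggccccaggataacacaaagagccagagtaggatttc
IGFBP3: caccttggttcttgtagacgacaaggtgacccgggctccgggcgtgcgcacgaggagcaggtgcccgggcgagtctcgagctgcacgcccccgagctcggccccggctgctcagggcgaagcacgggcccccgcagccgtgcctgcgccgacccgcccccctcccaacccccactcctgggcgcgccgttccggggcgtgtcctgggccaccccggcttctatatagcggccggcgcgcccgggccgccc
IGFBP4: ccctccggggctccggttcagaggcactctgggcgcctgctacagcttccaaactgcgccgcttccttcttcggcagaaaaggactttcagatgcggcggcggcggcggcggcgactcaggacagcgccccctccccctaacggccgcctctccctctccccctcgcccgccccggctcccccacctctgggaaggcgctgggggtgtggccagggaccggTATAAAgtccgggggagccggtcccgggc

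The IGF1 stretch was 41.1% G or C with 0 CpG pairs, the IGFBP3 stretch 76.0% with 32 and the IGFBP4 stretch 71.6% with 24. Over 35116 windows of 250 bases the medians were 58.0% and 11 CpG pairs. Motifs were searched on both strands of the full windows. The forkhead core GTAAACA, bound by FOXO factors among others, stood 247 to 241 bases before the IGF1 start and was present in 2.98% of all windows. The TATA box core TATAAA stood 29 to 24 bases before the IGFBP4 start and was present in 10.7% of all windows. Direct repeats of AGGTCA, and of AGTTCA, with 4 bases between the copies, of the kind nuclear receptor dimers bind, are in none of the 9 windows of the 6 genes and in 0.0142% and 0.0057% of all windows. These letters describe the windows only.

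IGF1 transcripts were abundant in KO cells and nearly absent from WT cells, whatever the treatment. In KO cells IGF1 had 59.9 and 59.3 CPM with PB, 63.0 and 61.3 CPM with CITCO, and 61.7 and 61.3 CPM with DMSO. In WT cells it had 0 and 0.0179 CPM with PB, 0.0181 and 0.0331 CPM with CITCO, and 0 and 0.0210 CPM with DMSO. All 6 KO libraries stood far above all 6 WT libraries.

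In reads, the 6 KO libraries held 24096 IGF1 reads and the 6 WT libraries 5. Scaled to library size the KO level was 6890 times that in WT with PB (8183 against 1 read, exact 95% interval 1236 to 272200), 2397 times with CITCO (7802 against 3 reads, 820 to 11630) and 5685 times with DMSO (8111 against 1 read, 1020 to 224600). These intervals cover counting error only, and the ratios rest on so few WT reads that their order carries no meaning. IGF1 entered the test only through the KO libraries, so no test of its genotype difference is given, and it is left out of the genotype counts below. The authors' deposited tables of comparisons do not list it.

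Within KO cells the drugs left IGF1 within narrow bounds, although both PB libraries lay below both DMSO libraries. The log2 difference from DMSO, taken on CPM + 0.5 here and throughout, was -0.04 with PB (95% interval -0.27 to 0.18, adjusted p = 0.893) and 0.01 with CITCO (-0.21 to 0.24, adjusted p = 0.987), by limma across 15792 loci with Benjamini-Hochberg adjustment. A locus is called changed where that adjusted p is under 0.05. The IGF1 intervals use a spread that also takes in the WT libraries, where IGF1 had 0 to 2 reads each.

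**Figure D1:**
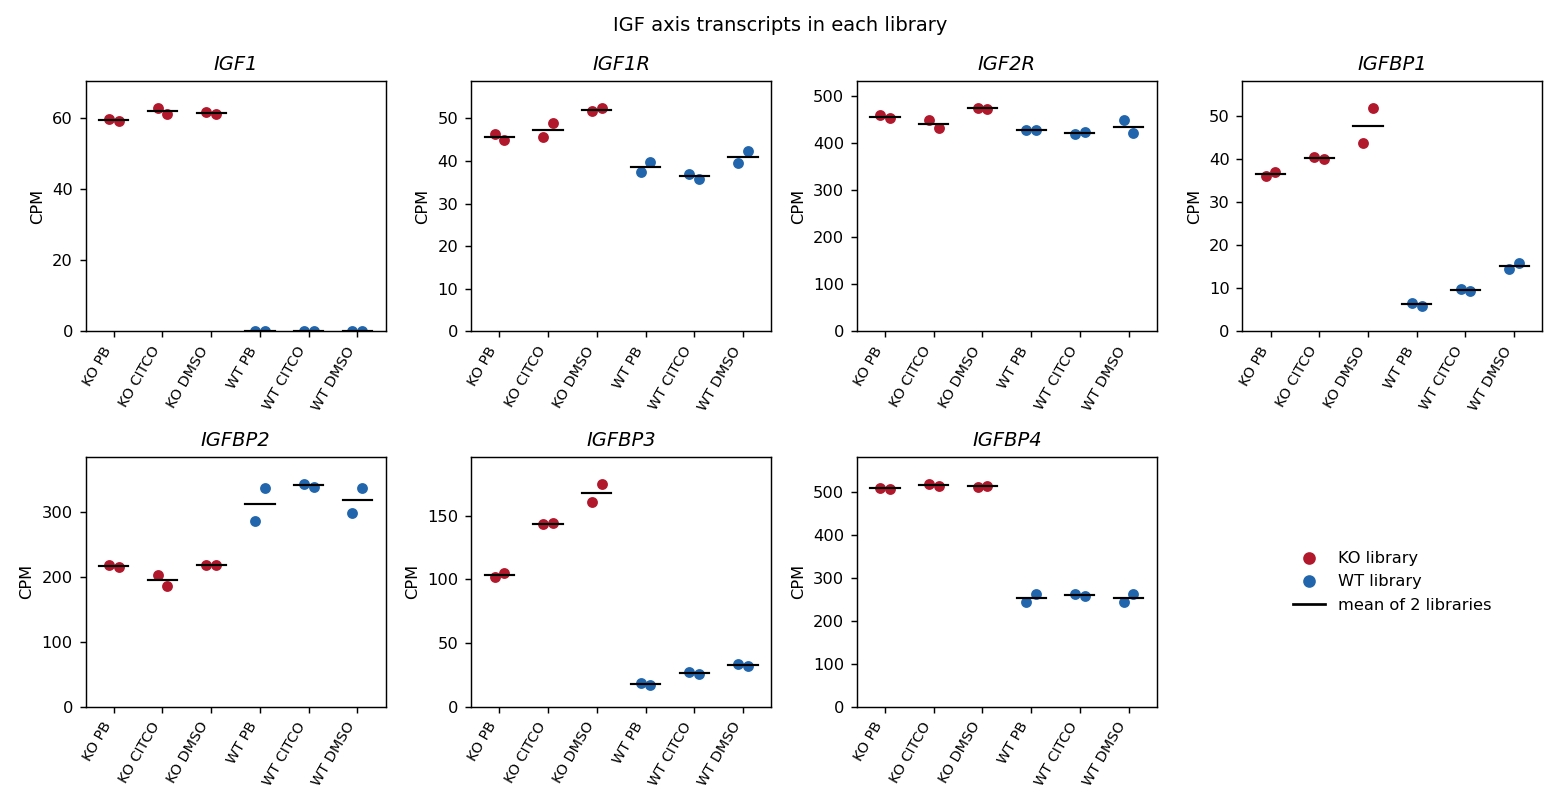
CPM of the 7 genes in each of the 12 libraries. Each panel is 1 gene with its own linear axis from 0, points are libraries (red KO, blue WT) and black lines are the means of 2 libraries. IGF1 is at 59.3 to 63.0 CPM in KO and at most 0.0331 CPM in WT libraries, and IGFBP1 and IGFBP3 fall in the same order of groups.

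Both receptors were expressed in both genotypes and differed little. IGF1R had 46.3 and 44.9 CPM in KO cells with PB, 45.6 and 48.8 CPM with CITCO, and 51.7 and 52.4 CPM with DMSO. WT cells held 37.5 and 39.8 CPM with PB, 37.0 and 35.7 CPM with CITCO, and 39.4 and 42.4 CPM with DMSO. All KO libraries lay above all WT libraries, and the IGF1R genotype difference was called under DMSO (0.34, SE 0.06, adjusted p = 8.16e-05), PB (0.24, adjusted p = 0.00258) and CITCO (0.37, adjusted p = 3.65e-05). Scaling each library to its own total moved the differences to 0.61, 0.48 and 0.62, of which 0.25, 0.24 and 0.24 is the shift of the median over all loci.

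The level of IGF1R was lowest with PB among KO groups and lowest with CITCO among WT groups. Its PB difference in KO cells was -0.19 (SE 0.06, 95% interval -0.32 to -0.06, adjusted p = 0.0683), just short of the threshold. It passed in 6 of 19 alternative settings, among them library totals (adjusted p = 0.0338) and a fit on the 4 libraries of that contrast (0.0252). It also passed without either WT DMSO library (0.0455 and 0.0456) or either WT PB library (0.0498 and 0.0497), which enter only through the shared spread. The authors' deposited table gives -0.19 with an FDR of 0.0639. Its CITCO difference in KO cells was -0.14 (adjusted p = 0.387).

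IGF2R ranged over 432 to 474 CPM in KO libraries and 419 to 448 CPM in WT libraries, and the genotypes overlapped. Its highest group was KO with DMSO, at 474 and 473 CPM, and its lowest was WT with CITCO, at 419 and 423 CPM. The genotype difference was called under DMSO (0.13, adjusted p = 0.00637) and PB (0.09, adjusted p = 0.0344) and not under CITCO (0.07, adjusted p = 0.126). It was not called under DMSO without WT DMSO library 2 (0.08, adjusted p = 0.104) or with a constant prior variance (adjusted p = 0.0646). Under PB it failed in 8 of 19 alternatives, among them without either KO PB library (adjusted p = 0.159 and 0.0809) or either WT PB library (0.0705 and 0.0857) or either WT CITCO library (0.0502 each). With library totals the differences were 0.39, 0.34 and 0.32, all called, so most of the IGF2R difference seen then equals the shift of the median locus.

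IGFBP1 and IGFBP3 stood higher in KO cells and lower with both drugs, in the same order of groups. IGFBP1, the insulin-repressed hepatic binding protein, had 36.2 and 37.0 CPM in KO cells with PB, 40.6 and 40.1 CPM with CITCO, and 43.7 and 52.0 CPM with DMSO. In WT cells it had 6.70 and 6.0 CPM with PB, 9.93 and 9.44 CPM with CITCO, and 14.5 and 15.8 CPM with DMSO. No neighbouring groups in this order of levels overlapped, although the KO DMSO libraries lay 8.28 CPM apart, further than any other IGFBP1 duplicates.

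IGFBP3, the principal IGF carrier of plasma, had 102 and 105 CPM in KO cells with PB, 143 and 144 CPM with CITCO, and 161 and 175 CPM with DMSO. WT cells held 19.3 and 17.3 CPM with PB, 27.6 and 26.2 CPM with CITCO, and 33.8 and 32.6 CPM with DMSO. Again the groups ran from DMSO through CITCO to PB within each genotype, with no overlap between neighbours.

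In KO cells 2 of the 7 genes fell with PB and none rose, where 6.96% of all loci were called (3.87% higher and 3.09% lower). Both, IGFBP3 and IGFBP1, had been chosen with the difference of their PB responses known, which holds these KO values. Their PB responses in KO cells are therefore described without a test, and the count adds nothing to the choice. IGFBP3 fell by 0.70 (SE 0.06), to 0.616 of its DMSO level, and leaving out single libraries gave -0.76 to -0.64. IGFBP1 fell by 0.38 (SE 0.09), to 0.770 of its DMSO level on the same scale. The IGFBP1 difference was -0.25 without KO DMSO library 2, -0.36 without KO PB library 1 and -0.39 without KO PB library 2. The authors' deposited table gives -0.39 for IGFBP1 and -0.70 for IGFBP3. The median over the 7 genes was -0.05, against 0.000588 over all loci.

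With CITCO in KO cells none of the 7 genes was called, where 0.811% of loci were (0.386% higher and 0.424% lower). An unadjusted p under 0.05 was found for 5 of the 7, and for 1743 of the 15792 loci tested. The median over the 7 genes was -0.14, against -0.00232 over all loci. IGFBP1 differed by -0.24 (95% interval -0.42 to -0.06, adjusted p = 0.282) and IGFBP3 by -0.22 (-0.35 to -0.10, adjusted p = 0.109). The IGFBP3 difference was called when the 4 libraries of that contrast were fitted alone (adjusted p = 0.0201) and without WT PB library 1 (0.0436) or 2 (0.0421), and not in the other 16 alternatives. The authors' deposited table gives FDR values of 0.158 for IGFBP1 and 0.0773 for IGFBP3. IGFBP2 (-0.17), IGF1R and IGF2R (-0.10) also had unadjusted p under 0.05, and the authors' FDR was 0.471 for IGFBP2.

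The WT responses of IGFBP1 and IGFBP3, and the difference of their PB responses, were known when the genes were chosen. They are therefore described without a test. With PB in WT cells IGFBP1 differed from DMSO by -1.19 (SE 0.09), to 0.438 of its DMSO level, and IGFBP3 by -0.84 (SE 0.06), to 0.557. With CITCO in WT cells IGFBP1 differed by -0.62 and IGFBP3 by -0.30. The KO response to PB less the WT response was 0.81 (SE 0.12) for IGFBP1 and 0.15 (SE 0.08) for IGFBP3. Across WT cells 6.42% of loci were called with PB (2.66% higher and 3.76% lower) and 2.2% with CITCO (1.18% and 1.02%). A called difference of the PB responses was present for 1.01% of loci (0.798% higher and 0.209% lower in KO).

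The CITCO responses were compared between genotypes for the 6 genes other than IGF1, again without a test for IGFBP1 and IGFBP3, whose WT values entered the choice. The KO response to CITCO less the WT response was 0.38 for IGFBP1 (SE 0.12) and 0.08 for IGFBP3 (SE 0.08). Of the other 4 genes none differed by limma, where 0.336% of loci did (0.108% higher and 0.228% lower). IGFBP2 alone of these 4 had an unadjusted p under 0.05, as did 1996 of the 15792 loci tested. For IGFBP2 the difference was -0.27 (95% interval -0.46 to -0.08, adjusted p = 0.223). Without WT DMSO library 2 the IGFBP2 difference was called (-0.36, adjusted p = 0.0311).

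**Figure D2:**
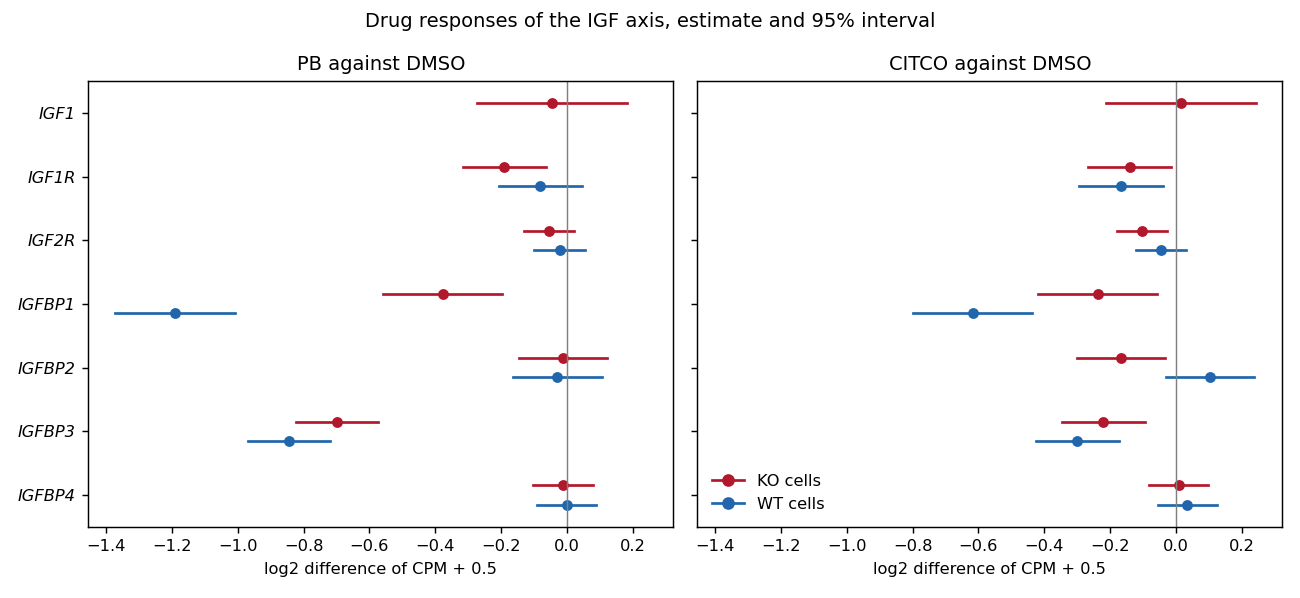
Log2 difference from DMSO with PB (left) and CITCO (right) for each gene, as the fitted estimate and its 95% interval, in KO (red, upper) and WT cells (blue, lower). IGF1 in WT cells is not drawn because it had 5 reads in 6 libraries. The intervals of IGFBP1 and IGFBP3 in WT cells, and with PB in KO cells, are descriptions and not tests, since these values entered the choice. With PB, IGFBP3 lies at -0.70 in KO and -0.84 in WT cells, while IGFBP1 lies at -0.38 in KO and -1.19 in WT cells.

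IGFBP1 and IGFBP3 are also neighbours on chromosome 7, with IGFBP1 at chr7:45888488-45893660 and IGFBP3 at chr7:45912245-45921272 in RefSeq GRCh38.p14, 18.584 kb apart with no protein-coding gene annotated between them. After removal of the genotype means their log2 levels correlated over the 12 libraries with r = 0.897. The other pairs of the 6 genes apart from IGF1 ran from r = -0.433, for IGFBP4 with IGF2R, to 0.679, for IGFBP2 with IGFBP4. No coefficient is given for IGF1, since its values in WT libraries rest on 0 to 2 reads each. These points are 6 pairs of duplicates that share treatments and normalization, so the coefficients are descriptions. IGFBP1 and IGFBP3 had also been chosen by their drug values in WT cells, so a high coefficient for this pair was partly set by the choice.

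By the same measure, among 11612 loci with a mean of at least 5 CPM, the levels most like IGFBP3 were those of CAV1 (r = 0.992), PGK1 (0.984) and GPM6B (0.981). The closest to IGFBP1 were KLF10 (0.963), LDHA (0.956) and RP11-903H12.3 (0.956). The closest to IGFBP2 was LPPR2 (0.967), to IGFBP4 PKD1P1 (0.949), to IGF1R NOS1AP (0.911) and to IGF2R MAP1B (0.891).

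**Figure D3:**
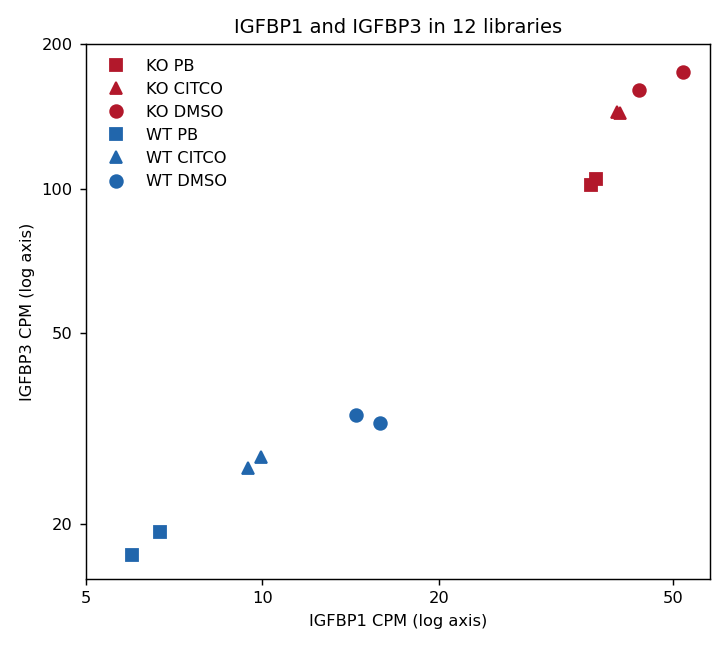
IGFBP3 against IGFBP1 in CPM, both on log axes, 1 point for each of the 12 libraries (red KO, blue WT; squares PB, triangles CITCO, circles DMSO). Within each genotype the points run from PB at the lower left through CITCO to DMSO at the upper right, and the KO points lie at 36.2 to 52.0 CPM of IGFBP1, above the WT points at 6.0 to 15.8 CPM.

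Across genotypes the binding proteins differed in opposite directions. IGFBP3 and IGFBP1 were higher in KO cells, IGFBP4 was about 2.02 times as high, and IGFBP2 was lower. IGFBP3 rose by 2.32 under DMSO (SE 0.06, adjusted p = 6.47e-16) and IGFBP1 by 1.62 (SE 0.09, adjusted p = 1.70e-11). The DMSO tests share the WT DMSO libraries with the WT responses by which these genes had been chosen. The KO DMSO libraries are part of the difference of PB responses, also known at the choice. These 2 tests are therefore not independent of it. Under PB and CITCO the differences also hold the WT drug values themselves and are given without a test, 2.47 and 2.40 for IGFBP3 and 2.44 and 2.00 for IGFBP1. In linear terms the IGFBP1 level was 3.08, 5.42 and 4.01 times that in WT cells under DMSO, PB and CITCO, and the IGFBP3 level 4.99, 5.52 and 5.27 times.

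IGFBP4, which inhibits IGF action and is cleaved by the protease PAPPA, was steady within each genotype. It had 510 and 507 CPM in KO cells with PB, 519 and 513 CPM with CITCO, and 511 and 514 CPM with DMSO. The WT cells held 243 and 264 CPM with PB, 262 and 257 CPM with CITCO, and 243 and 264 CPM with DMSO. The genotypes did not overlap, and the difference was 1.02 under DMSO (SE 0.04, adjusted p = 5.98e-13), 1.00 under PB and 0.99 under CITCO. Its PB and CITCO differences in KO cells were -0.01 (95% interval -0.10 to 0.08) and 0.01 (-0.08 to 0.10).

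IGFBP2, another binding protein secreted by the liver, was the only 1 of the 7 genes with a lower level in every KO library. It had 219 and 216 CPM in KO cells with PB, 203 and 187 CPM with CITCO, and 219 and 218 CPM with DMSO. In WT cells it had 287 and 338 CPM with PB, 344 and 339 CPM with CITCO, and 298 and 338 CPM with DMSO. The IGFBP2 difference was -0.54 under DMSO (SE 0.06, adjusted p = 1.02e-06), -0.52 under PB and -0.81 under CITCO, and -0.27, -0.27 and -0.56 with library totals, each called. With CITCO both KO libraries lay below both KO DMSO libraries and both WT libraries above both WT DMSO libraries, the nearest WT pair by less than 1 CPM.

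Of the 6 genes compared between genotypes, 5 were higher and 1 lower in KO cells under DMSO, where 57.7% of all loci were called (28.3% higher and 29.4% lower). Under PB the count was again 5 higher and 1 lower, where 58.3% of loci were called (29.4% and 28.9%). Under CITCO it was 4 higher and 1 lower, with IGF2R not called, where 59% of loci were (29.3% and 29.8%). The PB and CITCO counts include IGFBP1 and IGFBP3, whose differences there are descriptions. Because so large a share of the table was called, a count over 6 genes carries little, and the sizes are given instead. The median over the 6 genes was 0.68 under DMSO, 0.62 under PB and 0.68 under CITCO, against -0.00319, 0.00250 and -0.00300 over all loci. Counts and medians alike include IGFBP1 and IGFBP3, which were chosen from these libraries. Under DMSO the differences of the others were -0.54 for IGFBP2, 1.02 for IGFBP4, 0.34 for IGF1R and 0.13 for IGF2R. Of the loci called, 49.0% were higher in KO cells under DMSO with the deposited scaling and 78.2% with library totals. The authors' deposited table for DMSO gives 1.67 for IGFBP1, -0.53 for IGFBP2, 2.35 for IGFBP3, 1.03 for IGFBP4, 0.36 for IGF1R and 0.13 for IGF2R, each with an FDR under 0.05.

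Of the 7 hepatocyte markers measured, 5 were lower in KO cells under DMSO, 7 under PB and 6 under CITCO, and none was higher. TTR and TAT were not called under DMSO. Markers of other cell types also differed between the genotypes, as did 57.7% to 59% of all loci. Of 10 mesenchymal and stellate markers 5 were measured, with a summed level of 138 to 147 CPM in KO and 97.0 to 111 CPM in WT libraries. Under DMSO 2 of these 5 were higher in KO cells, ACTA2 by 0.78 and LUM by 0.91, and 1 lower, COL3A1 (-0.41). COL1A1 (0.26) and POSTN (0.09) were not called, and ACTA2 was the largest part of the sum. ACTA2 had 72.9 to 79.0 CPM in KO and 42.7 to 48.0 CPM in WT libraries, and LUM 10.6 to 16.0 CPM in KO and 4.63 to 6.74 CPM in WT libraries. COL1A2, VIM, THY1, PDGFRB and DES were not analysed here. Of 6 biliary markers 4 were measured, with a summed level of 104 to 121 CPM in KO and 377 to 467 CPM in WT libraries. KRT19 made up most of that sum, with 62.4 to 84.0 CPM in KO and 344 to 437 CPM in WT libraries. Under DMSO 2 of these 4 were higher in KO cells, KRT7 by 0.73 and SPP1 by 1.27, and 2 lower, KRT19 (-2.27) and SOX9 (-0.92), with the same directions called under PB and CITCO. The single endothelial marker measured of 5, PECAM1, was at 1.82 to 2.14 CPM in KO and 0.771 to 1.93 CPM in WT libraries, and none of the 4 macrophage and blood markers was analysed here. The part of these markers in the IGF axis differences was not tested, and in such bulk libraries fewer cells of a type and less RNA per cell cannot be told apart.

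Other genes of the pathway were read from 4 lists. The family list held IGFBP5, IGFBP6, IGFBP7 and INSR, the insulin receptor, while IGF2 and IGFALS were not analysed here. With PB in KO cells 1 of these 4 fell, where 3.09% of all loci were called lower. IGFBP5, a binding protein stored in the matrix, had 2.97 and 2.68 CPM in KO cells with PB, 3.63 and 3.53 CPM with CITCO, and 4.95 and 5.87 CPM with DMSO. WT cells held 5.65 and 6.31 CPM with PB, 6.59 and 6.38 CPM with CITCO, and 6.78 and 5.33 CPM with DMSO. Only the KO groups were ordered without overlap. The PB difference of IGFBP5 in KO cells was -0.83 (SE 0.13, adjusted p = 0.000425), called in all 19 alternatives, and its CITCO difference in KO cells was -0.53 (adjusted p = 0.0761). IGFBP5 lies beside IGFBP2 on chromosome 2, 7.668 kb away in the same annotation.

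Between genotypes, IGFBP7, a relative that binds IGFs weakly, was higher in KO cells, by 1.18 under DMSO (SE 0.07, adjusted p = 1.13e-10), 1.31 under PB and 1.18 under CITCO. Its levels were 77.3 and 91.3 CPM in KO and 35.4 and 38.5 CPM in WT cells with DMSO. INSR fell by 0.44 under DMSO (adjusted p = 2.45e-07; -0.18 with library totals, adjusted p = 0.00223), with 104 and 96.5 CPM in KO and 137 and 135 CPM in WT cells. IGFBP6, which prefers IGF2, was lower under PB (-1.04, adjusted p = 0.000131) and CITCO (-1.19, adjusted p = 3.39e-05). Under DMSO it was -0.63 (adjusted p = 0.00906), a call lost without WT DMSO library 2 (-0.38, adjusted p = 0.137) and with library totals (-0.42, adjusted p = 0.0619). In all, 1 of 4 was higher and 2 lower in KO cells under DMSO, where 57.7% of all loci were called. Under PB and under CITCO 1 was higher and 3 lower, where 58.3% and 59% of all loci were called.

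The proteases that release IGFs from their binding proteins and the inhibitors of those proteases were 4 genes, 3 higher and 1 lower in KO cells under each treatment, against 57.7% to 59% of all loci called. The pappalysin PAPPA rose by 0.58 under DMSO (adjusted p = 8.47e-05), with 17.8 and 17.4 CPM in KO and 11.8 and 11.4 CPM in WT cells. PAPPA2 rose by 0.74 (adjusted p = 0.00154), at 1.62 and 1.77 CPM in KO and 0.758 and 0.881 CPM in WT cells. The 2 stanniocalcins, both pappalysin inhibitors, went opposite ways. STC1 fell by 3.53 (SE 0.21, adjusted p = 8.52e-11), with 0.652 and 1.16 CPM in KO and 16.8 and 14.3 CPM in WT cells. STC2 rose by 1.11 (SE 0.13, adjusted p = 6.62e-07), with 12.2 and 10.9 CPM in KO and 4.80 and 5.37 CPM in WT cells. No gene of this list was called by limma for a drug in either genotype. Of all loci 6.96% were called with PB and 0.811% with CITCO in KO cells, and 6.42% and 2.2% in WT cells. Unadjusted p was under 0.05 for 0 of 4 with PB and 2 of 4 with CITCO in KO cells, and for 1 of 4 with each drug in WT cells. Of the 15792 loci tested, 2846 and 1743 had such a p with PB and CITCO in KO cells, and 2992 and 2578 in WT cells.

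The growth hormone list held the receptor GHR, its kinase JAK2, the transcription factors STAT5A and STAT5B and their feedback targets SOCS2 and CISH. Under each treatment 4 of the 6 were higher and 1, GHR, lower in KO cells, where 57.7% to 59% of all loci were called. GHR fell by 1.01 under DMSO (SE 0.07, adjusted p = 2.67e-10), with 42.9 and 47.4 CPM in KO and 96.2 and 87.0 CPM in WT cells. SOCS2 rose by 1.11 (SE 0.13, adjusted p = 5.50e-07), with 9.75 and 10.9 CPM in KO and 5.22 and 3.88 CPM in WT cells. STAT5A rose by 1.03 (adjusted p = 3.11e-07) and CISH by 0.92 (adjusted p = 4.22e-09), with CISH at 26.8 and 27.2 CPM in KO and 13.9 and 14.1 CPM in WT cells. STAT5B rose by 0.91 (adjusted p = 1.06e-10) and was at 57.0 and 59.1 CPM in KO and 31.0 and 30.2 CPM in WT cells with DMSO. JAK2, at 16.6 and 17.2 CPM in KO and 17.1 and 16.5 CPM in WT cells, was the gene not called. With library totals 5 of the 6 were higher and 1 lower. With the drugs no gene of this list was called by limma in either genotype. The shares of all loci called were 6.96% with PB and 0.811% with CITCO in KO cells, and 6.42% and 2.2% in WT cells. In KO cells 1 of 6 had an unadjusted p under 0.05 with PB and 1 of 6 with CITCO, and in WT cells 1 of 6 with PB and 2 of 6 with CITCO. Over the 15792 loci tested the numbers were 2846 and 1743 in KO cells and 2992 and 2578 in WT cells.

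**Figure D4:**
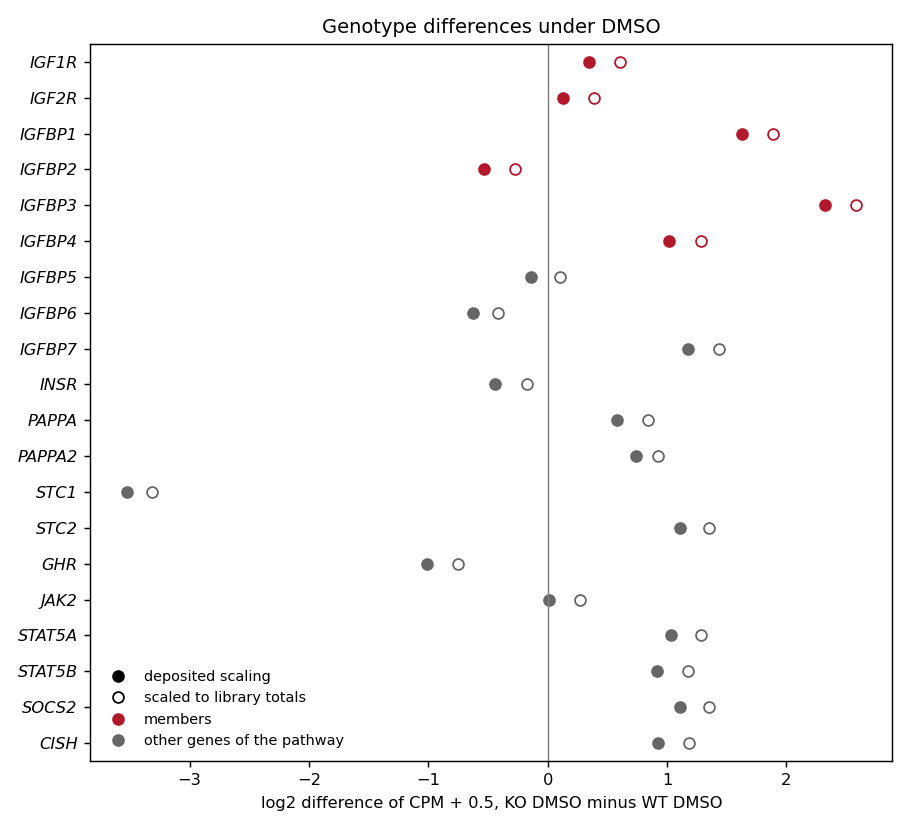
Log2 difference of CPM + 0.5, KO minus WT under DMSO, for 6 of the 7 genes (red) and the family, protease and growth hormone lists (grey), with the deposited scaling (filled) and with libraries scaled to their totals (open). IGF1 is left out because its WT level rests on 1 read. IGFBP3 lies at 2.32 and STC1 at -3.53, and IGFBP5 changes sign between the scalings (-0.14 and 0.10, neither called).

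Of 22 measured genes that carry the signal from the receptors, 6 were higher and 9 lower in KO cells under DMSO with the deposited scaling. Of all loci 28.3% were called higher and 29.4% lower there. With library totals 15 of the 22 were higher and 2 lower, so the list has no direction apart from the scaling. IRS2, an adaptor of the insulin and IGF1 receptors, rose by 1.05 (SE 0.10, adjusted p = 3.10e-08), with 63.7 and 79.4 CPM in KO and 30.3 and 38.3 CPM in WT cells. The kinase AKT2 rose by 0.43 (adjusted p = 3.42e-06; 0.70 with library totals). PDPK1, which activates AKT, fell by 0.40 (adjusted p = 7.25e-07) and PIK3R1, a regulatory subunit of phosphoinositide 3-kinase, by 0.38 (adjusted p = 1.42e-07). With library totals these differences were -0.14 for PDPK1 and -0.12 for PIK3R1, both called. The adaptor GRB14 (0.26, adjusted p = 0.00759) lost its call without WT DMSO library 1 (0.19, adjusted p = 0.0841) and was 0.51 with library totals, and FOXO4 (-0.53, adjusted p = 0.00124), a forkhead factor, with library totals (-0.28, adjusted p = 0.0535). SHC1 was not analysed here. Under PB 5 of the 22 were higher and 9 lower, and under CITCO 5 and 8, where 58.3% and 59% of all loci were called.

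With PB in KO cells 4 of these 22 genes fell and none rose, where 3.09% of all loci were called lower and 3.87% higher. Their median was -0.05, against 0.000588 over all loci. The forkhead factor FOXO3 fell by 0.22 (SE 0.05, adjusted p = 0.00446), with 111 and 109 CPM with PB and 126 and 131 CPM with DMSO. The adaptor IRS1 fell by 0.23 (SE 0.06, adjusted p = 0.0145), with 39.6 and 39.4 CPM with PB and 46.8 and 46.1 CPM with DMSO. IRS2 fell by 0.35 (SE 0.10, adjusted p = 0.0318), with 55.3 and 56.0 CPM with PB and 63.7 and 79.4 CPM with DMSO. PIK3R1 fell by 0.14 (SE 0.04, adjusted p = 0.0301), with 157 and 158 CPM with PB and 175 and 174 CPM with DMSO.

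Each of those 4 calls was lost without single libraries and with a constant prior variance, where the adjusted p was 0.0623 for FOXO3, 0.0585 for IRS1, 0.175 for IRS2 and 0.164 for PIK3R1. Without KO DMSO library 2 the adjusted p was 0.0648 for FOXO3, 0.0648 for IRS1, 0.400 for IRS2 (difference -0.19) and 0.117 for PIK3R1. Without KO PB library 2 it was 0.0775 for FOXO3, 0.117 for IRS1, 0.163 for IRS2 and 0.145 for PIK3R1. Without KO PB library 1 the calls of IRS1 (0.103), IRS2 (0.196) and PIK3R1 (0.206) were lost. Without KO DMSO library 1 those of IRS1 (0.105) and PIK3R1 (0.132) were lost. PIK3R1 also lost its call without WT CITCO library 1 (0.0521) or 2 (0.0522).

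With PB in WT cells the forkhead factors FOXO1 (-0.20, adjusted p = 0.0207) and FOXO3 (-0.19, adjusted p = 0.0175) fell, and none of the 22 genes rose. Of all loci 3.76% were called lower and 2.66% higher there. Without WT DMSO library 1 the adjusted p was 0.0792 for FOXO1 and 0.103 for FOXO3, and without WT PB library 2 it was 0.134 for FOXO1 and 0.139 for FOXO3. Without WT DMSO library 2 that of FOXO1 was 0.0508. Count models on the WT reads did not call them, with adjusted p of 0.0829 for FOXO1 and 0.0828 for FOXO3 by edgeR, and 0.10 for FOXO1 and 0.0780 for FOXO3 by DESeq2. With CITCO limma called none of the 22 genes in KO or in WT cells, where 0.811% and 2.2% of all loci were called. An unadjusted p under 0.05 was found for 6 of the 22 in KO and 4 in WT cells, and for 1743 and 2578 of the 15792 loci. No gene of the 4 lists had a called difference of the CITCO responses, where 0.336% of all loci did. An unadjusted p under 0.05 was found for 2 of all 36, 1 in the family list and 1 among the 22, and for 1996 of the 15792 loci.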

How the data were processed

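RNA from 12 libraries of HepaRG cells was sequenced. Per the submitters' processing notes, which assign no roles, the tools were edgeR 2.12, Cuffdiff 2.1.1, TopHat2 2.0.10, Cufflinks 2.1.1 and Bowtie 1.0.0, and the builds GRCh38 and GRCh37. The authors deposited 1 table of a normalized signal named CPM, whose library totals were 0.900 to 0.935 (KO) and 1.07 to 1.11 (WT) times 1e6, so a normalization factor is part of the library size. Counts or unscaled CPM had been planned for, so the test follows the unit found. In every library 100% of values came out as whole reads (tolerance 0.001 reads), which gave the IGF1 reads. Count models were run as alternatives on the 6 WT libraries. The authors' deposited tables give log2 fold changes and an FDR (an adjusted p-value) for 14161 loci and were quoted for 3 comparisons.

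The 15792 loci that reached 1 CPM in 2 or more libraries were fitted with limma 3.58.1 (R 4.3.3) on log2(CPM + 0.5), which understates changes of low genes, with a variance trend, 6 group means and 6 residual degrees of freedom. Calls are Benjamini-Hochberg adjusted p under 0.05 over all loci, and the same code was tested on simulated data. Duplicates differed by more than sampling noise, with a mean chi-square of 4.17 to 10.5 per locus. Promoter windows, positions and neighbours are RefSeq's. Genes named are the 7 members, pathway genes called within KO cells or for PB in WT cells, up to 3 per direction and list for KO against WT, and the loci most like each member apart from IGF1, with STAT5B and JAK2 added after their values were seen. The members and lists were chosen with earlier results of these data known. Alternatives were pseudocounts of 0.1 and 2, library totals, no filter, a constant prior variance, only the libraries compared, edgeR 4.0.16 and DESeq2 1.42.0 on WT reads, each library left out and a replicate block. A pathway gene that the naming rule would give is not reported here.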

Additional observations from a re-analysis of the deposited data

Results flagged for a closer look

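The PB response of IGFBP5 differed between the genotypes by a test of the difference itself. The response in KO minus that in WT was -0.82 (SE 0.19, limma adjusted p = 0.0409), from a PB difference of -0.83 in KO cells and -0.01 in WT cells, with both KO PB libraries below both KO DMSO libraries and the WT PB libraries within the range of the WT DMSO libraries. The call was lost in 13 of 19 alternatives, over which the adjusted p ran between 0.0156 and 0.232. Without KO PB library 1 or 2 it was 0.124 or 0.232, without KO DMSO library 1 or 2 it was 0.0511 or 0.216, without WT PB library 2 it was 0.139, and without WT DMSO library 2 it was 0.111. Without a KO CITCO library it was 0.0651 or 0.0648 and without a WT CITCO library 0.0676 or 0.0673. A constant prior variance gave 0.126, a fit on the 8 libraries involved 0.108, and a pseudocount of 2 a difference of -0.61 with 0.0503. IGFBP5 was at 2.68 to 6.78 CPM across the 12 libraries.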

How the results depend on the processing

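Between the deposited scaling and library totals, calls for KO against WT reversed for GRB10 under DMSO (-0.12 and 0.14, adjusted p = 0.0283 and 0.0104) and for RHEB under DMSO (-0.17 and 0.10) and PB (-0.10 and 0.15), each of the list of 22. None of the 7 members' called differences reversed in any alternative run. The number of members called with PB in KO cells was 1 with a constant prior variance, against 2, and 1 to 3 with single libraries left out. With CITCO in KO cells it was 1 with only the libraries compared, against 0, and 0 to 1 with libraries left out. For KO against WT the leave-one-out counts were 5 to 6 under DMSO, 5 to 6 under PB and 5 to 5 under CITCO, and for the difference of the CITCO responses 0 to 1. The 89 calls in the pathway lists over 9 comparisons became 79 to 92. With a pseudocount of 2 the IGFBP1 difference for PB in WT cells was -1.04, and the difference of its PB responses 0.67; leaving out libraries gave -1.27 to -1.12 and 0.69 to 0.94, and for CITCO in WT cells -0.68 to -0.55. The replicate numbers were not taken as pairs, since each group has only 2. Deviations of same-numbered libraries correlated between -0.175 and 0.433 over all pairs of groups. Among groups compared, r was 0.433 for WT PB with WT DMSO, 0.356 for KO DMSO with WT DMSO and 0.34 for KO PB with KO DMSO. It was 0.169 for KO CITCO with KO DMSO and 0.0119 for WT CITCO with WT DMSO. Between genotypes it was -0.0424 under PB and -0.0252 under CITCO. The replicate block left the members called at 2, 0, 6, 6, 5 and 0 in the 6 comparisons counted, the pathway calls at 87 and the IGFBP1 values at -1.19, -0.62 and 0.81. All member counts given here for PB in KO cells include IGFBP1 and IGFBP3. So do those for KO against WT under PB and CITCO, and for the difference of the CITCO responses. The differences of these 2 genes there are descriptions, since their WT values and the difference of their PB responses entered the choice. Counts over all loci moved more. PB in KO cells gave 522 to 1501 calls over all alternatives against 1099, CITCO in KO cells 20 to 232 (128 as reported), the difference of CITCO responses 6 to 491 (53), PB in WT cells 242 to 1102 (1014), CITCO in WT cells 72 to 992 (348) and the difference of PB responses 25 to 213 (159). On the WT whole reads edgeR called 561 loci with PB and 136 with CITCO, and DESeq2 668 and 224. Causes were not tested. Depth limits IGF1 in WT cells, where 3 reads are worth at most 0.0669 CPM.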
